A study of Mus musculus with 9 samples.

Results

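A set of 10 genes of acute-phase and plasma-type secreted proteins were followed across 3 sorted populations of mouse mammary luminal cells. They were taken by name from a table of 27179 genes: the fibrinogen chain genes Fga, Fgb and Fgg, the inter-alpha-inhibitor heavy chain gene Itih2, the haptoglobin gene Hp, the von Willebrand factor gene Vwf, the long pentraxin gene Ptx3, the lipocalin gene Apod, the chitinase-like gene Chil1 and the complement gene C3. All 10 were found, and all 10 passed the filter on low counts. The genes were selected on their measured levels and differences between these populations, so their own differences are given below as a description, with sizes and errors but no p-values. Whether they pass the threshold of the fit across all genes is stated only to show how that fit treats them, and supports nothing.

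Luminal epithelial cells of adult mouse mammary gland had been depleted of lineage-positive cells, sorted by flow cytometry, and sequenced in bulk as 3 libraries per population. The sort used CD14, a surface receptor for bacterial products, and a YFP reporter switched on by Cre recombinase expressed from the progesterone receptor gene (PR-cre), so that YFP marks cells with a present or past history of Pgr expression. HR-negative LP cells were CD14 positive and YFP negative, HR-positive LP cells were CD14 positive and YFP positive, and ML cells lacked CD14. For ML, the sample labels give YFP positive but the design text of the series gives YFP negative; the sample labels were followed. HR and LP are not spelled out in the labels, and all 3 populations share the reporter design; the strain, the exact age and the number of animals behind a library are not given there, so the spread between libraries may be partly technical.

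Acute-phase proteins are plasma proteins whose output by hepatocytes changes in inflammation, chiefly under interleukin-6 acting through STAT3 and under interleukin-1 acting through NF-kB and C/EBP factors. Fibrinogen is assembled in the secretory pathway from Aα, Bβ and γ chains and is cut by thrombin to form fibrin. Several of these proteins are also made outside the liver: the locally acting pentraxin Ptx3 by many stimulated cell types, von Willebrand factor by endothelium and megakaryocytes, and Chil1, known in the mouse as breast regression protein 39, in the involuting mammary gland.

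The 10 genes split into a pair of patterns. Fga, Fgb, Fgg, Itih2, Hp and Vwf were low or not detected in HR-negative LP and higher in HR-positive LP and ML. Ptx3, Apod, Chil1 and C3 were highest in HR-negative LP, intermediate in HR-positive LP and lowest in ML. Levels are given as CPM, counts scaled to a common library size, and fold changes on the log2 scale with their standard error (SE). Because the libraries are bulk samples, fewer cells that express a gene and less RNA of it per cell cannot be told apart.

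**Figure D1:**
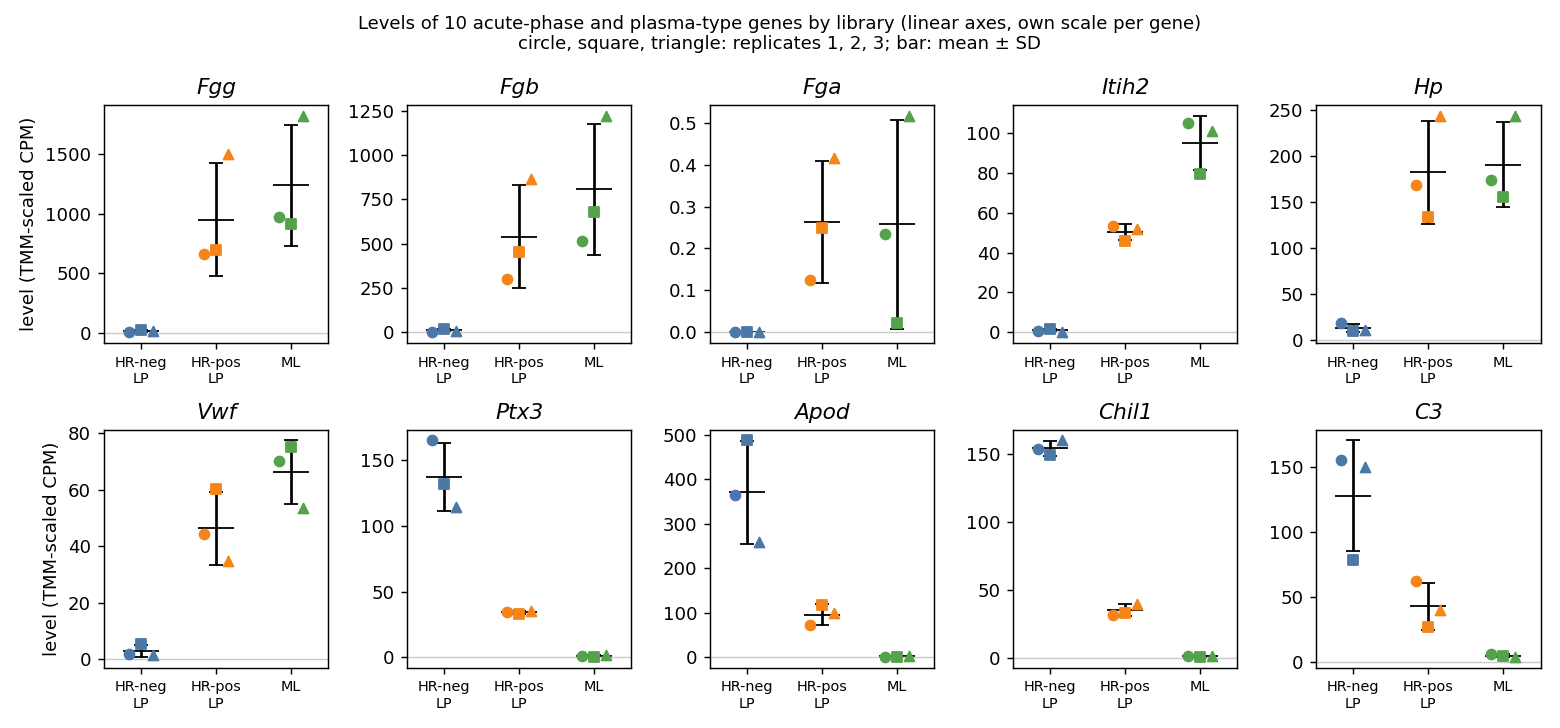
Level (scaled CPM, linear axis with its own scale per gene) of the 10 genes in each of the 9 libraries, with bars for the mean ± SD of 3 libraries. The fibrinogen chain genes, Itih2, Hp and Vwf sit near 0 in HR-negative LP, while Ptx3, Apod, Chil1 and C3 step down from HR-negative LP over HR-positive LP to ML.

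The 3 fibrinogen genes lie side by side on chromosome 3 (mm10), Fgg at 83007724 to 83015056, Fga at 83026153 to 83033627 and Fgb, on the minus strand, at 83042246 to 83049863. The 250 bases before each start site are printed here because the 3 genes share a locus and a protein but, as described below, not a level. Capitals mark matches to the C/EBP motif, spelled TTGNGNAA on either strand. They also mark a second sequence, CTGGGAA, known from interleukin-6-responsive fibrinogen promoters of the rat. The sequences are from RefSeq, build GRCm38.p6, 5′ to 3′ on the gene's strand: chr3:83025903-83026152 for Fga (plus), chr3:83049864-83050113 for Fgb (minus) and chr3:83007474-83007723 for Fgg (plus).
Fga: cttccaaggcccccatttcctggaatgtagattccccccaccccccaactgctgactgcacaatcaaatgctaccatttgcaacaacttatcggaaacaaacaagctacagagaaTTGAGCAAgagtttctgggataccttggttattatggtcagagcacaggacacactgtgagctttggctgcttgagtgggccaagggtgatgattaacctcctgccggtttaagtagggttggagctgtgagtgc
Fgb: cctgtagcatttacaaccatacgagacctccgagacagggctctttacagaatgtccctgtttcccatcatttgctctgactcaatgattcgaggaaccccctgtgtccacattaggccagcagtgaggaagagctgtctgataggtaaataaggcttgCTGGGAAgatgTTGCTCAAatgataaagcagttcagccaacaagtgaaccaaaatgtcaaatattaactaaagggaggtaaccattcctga
Fgg: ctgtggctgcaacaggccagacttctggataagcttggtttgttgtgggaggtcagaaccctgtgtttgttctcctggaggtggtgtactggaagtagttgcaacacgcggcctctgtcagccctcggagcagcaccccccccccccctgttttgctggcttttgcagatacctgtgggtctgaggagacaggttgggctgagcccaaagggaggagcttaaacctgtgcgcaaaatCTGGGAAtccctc

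The Fga window holds 1 C/EBP match with its first base at -135 and no CTGGGAA. The Fgb window holds both, the C/EBP match at -80 and CTGGGAA at -91, and the Fgg window holds CTGGGAA alone, at -13. A further 3 motifs were searched, like these, on both strands of the window from 250 bases before to 50 bases after the start. The STAT motif was spelled TTCNNNGAA. The motif of the FOXA factors was spelled TGTTTAC, and the TATA box was spelled as the letters TATAAA. Fga and Fgb each had 1 STAT match, at -234 and -162, not overlapping the marked letters, and Fgg had no match to these 3. Of 27025 promoters in the RefSeq table, 11.1% held CTGGGAA, 8.47% the STAT motif, 13.2% the C/EBP motif, 3.55% the FOXA motif and 14.2% the TATA box. Among the other genes with a listed promoter, C3 had 2 C/EBP matches, Itih2, Ptx3 and Apod had 1 C/EBP match each, and Chil1 had CTGGGAA. C3 also had the letters TATAAA at 14, after its start site. A match is a description of the letters only, and Hp and Vwf have no entry in the table.

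Fgg, which encodes the γ chain, stood at 8.43, 24.7 and 13.7 CPM in the HR-negative LP libraries (replicates 1 to 3), at 660.5, 692 and 1498 CPM in HR-positive LP and at 974, 916 and 1823 CPM in ML. Every HR-positive LP library was at least 26.7 times above the highest HR-negative LP library, and the HR-positive LP and ML libraries overlapped. Means were 15.6 ± 8.32, 950.1 ± 475 and 1238 ± 508 CPM (SD, n = 3). The log2 fold change was 5.92 (SE 0.53) from HR-negative to HR-positive LP, 0.38 (SE 0.43) from HR-positive LP to ML and 6.30 (SE 0.54) from HR-negative LP to ML. Replicate 3 held the highest Fgg level in both YFP-positive populations. A predicted gene, Gm30097, overlaps the start of Fgg, and the kit does not mark strand, so reads from both cannot be told apart there.

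Fgb, the gene of the Bβ chain, followed Fgg closely. It was at 3.79, 21.1 and 7.01 CPM in HR-negative LP, at 299.8, 455 and 862 CPM in HR-positive LP and at 515, 679.8 and 1222 CPM in ML. The groups again separated at HR-negative LP alone, with means of 10.6 ± 9.2, 539 ± 291 and 806 ± 369.9 CPM (SD, n = 3). Log2 fold changes were 5.65 (SE 0.69), 0.58 (SE 0.57) and 6.23 (SE 0.71) in the same order of comparisons. Per length, Fgb stood at 0.435, 0.824 and 0.495 of the Fgg level in the HR-negative LP libraries, at 0.439, 0.636 and 0.557 in HR-positive LP and at 0.511, 0.718 and 0.648 in ML. The ratio of both chains thus spanned a similar range in populations whose levels differed by 50.1-fold (HR-positive over HR-negative LP).

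Fga, which encodes the Aα chain, was nearly absent from the same libraries. It had 0 counts in each HR-negative LP library, 13, 16 and 38 counts in the HR-positive LP libraries and 7, 1 and 22 in the ML libraries. These are 0.124, 0.249 and 0.416 CPM in HR-positive LP and 0.234, 0.0213 and 0.518 CPM in ML, with means of 0.263 ± 0.147 and 0.258 ± 0.249 CPM (SD, n = 3). A count of 0 over the HR-negative LP libraries allows up to 3 counts, or 0.0171 CPM, for counting error only. Against that limit Fga was at least 15-fold higher in HR-positive LP (67 counts in all) and at least 14.7-fold higher in ML (30 counts). Per length, the Fga level was 0.00848%, 0.0163% and 0.0126% of the Fgg level in the HR-positive LP libraries and 0.0109%, 0.00105% and 0.0128% in ML. Fga passed the filter on low counts only through the YFP-positive libraries.

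Among all genes ordered by level per length, Fgg ranked 106, 112 and 45 in the HR-positive LP libraries and 67, 71 and 27 in ML, against 8356, 4695 and 6672 in HR-negative LP. It took 0.0698%, 0.0687% and 0.148% of all counts in the HR-positive LP libraries and 0.107%, 0.0924% and 0.191% in the ML libraries. Fgb ranked between 53 and 274 in the YFP-positive libraries. The γ and Bβ chain genes were thus among the most abundant transcripts of both populations while the Aα chain gene was close to the counting floor. The neighbouring gene Plrg1, a spliceosome component gene, stood at 49.7 ± 8.13, 108 ± 4.54 and 142 ± 6.75 CPM, and Lrat and Rbm46 on the other side averaged under 1 CPM in each population.

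**Figure D2:**
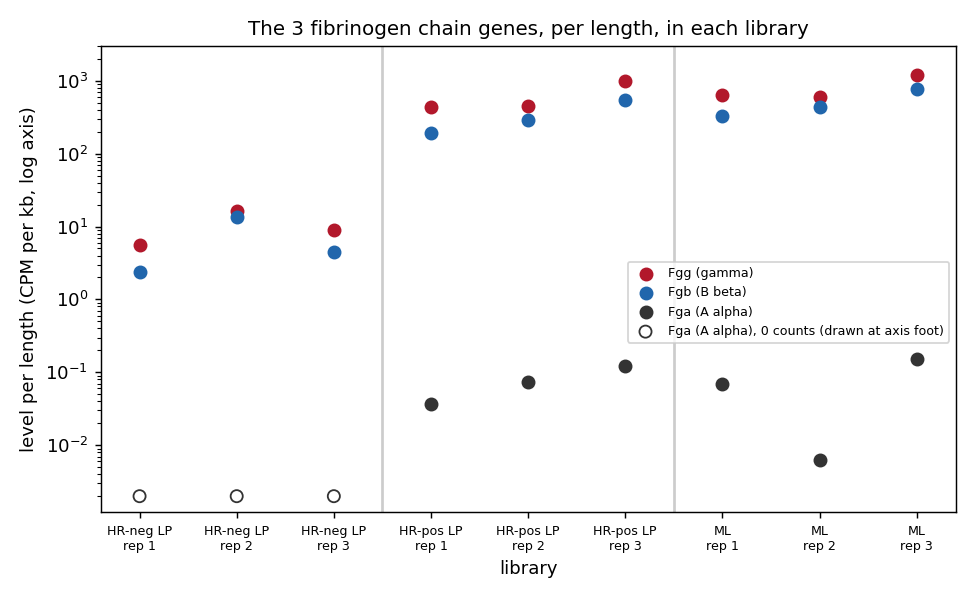
Level per length (CPM per kb, log axis) of Fgg, Fgb and Fga in each library; open circles at the foot of the axis stand for 0 counts. Fgg and Fgb run together from 2.41 to 1197 CPM per kb, and Fga does not exceed 0.154 CPM per kb in any library.

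Itih2 (chromosome 2, 10094591 to 10130683) encodes a heavy chain of inter-alpha-inhibitor, which is joined to bikunin in plasma and can be transferred to hyaluronan in tissue. Its level in CPM was 0.605, 1.8 and 0.215 in the HR-negative LP libraries, 53.6, 45.8 and 51.9 in those of HR-positive LP and 105, 79.5 and 101 in those of ML. It was the only one of the 6 genes of this pattern whose HR-positive LP and ML libraries did not overlap, the lowest ML library being 1.48 times the highest HR-positive LP library. Means were 0.874 ± 0.827, 50.4 ± 4.06 and 95 ± 13.6 CPM (SD, n = 3), and the log2 fold changes were 5.66 (SE 0.49), 0.91 (SE 0.38) and 6.57 (SE 0.50). The step from HR-positive LP to ML did not pass the threshold with all libraries. It passed with limma voom, in the fit of only these groups and without HR-negative LP replicate 2, and the log2 fold change ran from 0.84 to 1.03 over all alternatives.

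Hp (chromosome 8, 109575128 to 109579172) encodes haptoglobin, which binds free haemoglobin. It was at 18.5, 9.97 and 11.4 CPM in HR-negative LP, at 169, 134 and 244 CPM in HR-positive LP and at 174, 155 and 243 CPM in ML. The YFP-positive libraries were all at least 7.28 times above the highest HR-negative LP library and lay in the same range as each other. Means were 13.3 ± 4.54, 183 ± 56.2 and 191 ± 46.4 CPM (SD, n = 3), with log2 fold changes of 3.78 (SE 0.31), 0.06 (SE 0.27) and 3.84 (SE 0.31). As for Fgg and Fgb, replicate 3 held the highest Hp level in HR-positive LP and in ML.

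Vwf (chromosome 6, 125552948 to 125686679) encodes von Willebrand factor, a multimeric protein that tethers platelets and carries factor VIII. Its level in CPM was 1.92, 5.41 and 1.43 in the HR-negative LP libraries, 44.2, 60.3 and 34.6 in those of HR-positive LP and 70.2, 75 and 53.5 in those of ML. HR-positive LP replicate 2 lay above ML replicate 3, so these groups overlapped, and both were clear of HR-negative LP. Means were 2.92 ± 2.17, 46.4 ± 13 and 66.2 ± 11.3 CPM (SD, n = 3), with log2 fold changes of 3.93 (SE 0.44), 0.51 (SE 0.39) and 4.44 (SE 0.45).

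HR-negative LP replicate 2 was the highest of its group for Fgg, Fgb, Itih2 and Vwf. Its Fgg, Fgb, Itih2 and Vwf levels were 2.6%, 3.91%, 3.57% and 11.7% of the HR-positive LP mean, against 0.888% and 1.44%, 0.704% and 1.3%, 1.2% and 0.426%, and 4.13% and 3.09% in replicates 1 and 3. The same library was also highest for Pgr, the progesterone receptor gene behind the reporter, at 15.8 CPM against 6.32 and 6.12 CPM, and for the prolactin receptor gene Prlr, at 303 CPM against 119 and 171 CPM. Hp did not share this order, since replicate 1 was its highest HR-negative LP library. The part of YFP-positive cells in these values was not tested.

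Ptx3 (chromosome 3, 66219887 to 66225806), a long pentraxin that binds microbes and complement proteins and, in the mouse, helps to organise the matrix around the oocyte, belonged to the pattern that falls towards ML. Its level in CPM was 165, 132 and 114 in the HR-negative LP libraries, 34.2, 33.3 and 35.1 in those of HR-positive LP and 0.904, 0.447 and 1.77 in those of ML. The groups did not overlap, and the HR-positive LP libraries were close to one another. Means were 137 ± 25.8, 34.2 ± 0.913 and 1.04 ± 0.67 CPM (SD, n = 3), with log2 fold changes of -2.01 (SE 0.30), -5.04 (SE 0.37) and -7.05 (SE 0.40). Ptx3 lies within the span of Veph1, which averaged 0.322, 0.152 and 0 CPM in the same order of populations.

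Apod (chromosome 16, 31296192 to 31314808) encodes apolipoprotein D, a lipocalin that carries small hydrophobic molecules and is abundant in human breast cyst fluid. It was at 366, 488 and 258 CPM in HR-negative LP, at 71.8, 117 and 98.2 CPM in HR-positive LP and at 1, 0.234 and 2.4 CPM in ML. No group overlapped another, and the lowest HR-positive LP library was 29.9 times the highest ML library. Means were 371 ± 115, 95.8 ± 22.8 and 1.21 ± 1.1 CPM (SD, n = 3), with log2 fold changes of -1.95 (SE 0.47), -6.30 (SE 0.60) and -8.26 (SE 0.65), the widest span of the 10 genes in the fit.

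Chil1 (chromosome 1, 134182156 to 134190031) encodes a chitin-binding protein of the chitinase family without chitinase activity. Its level in CPM was 154, 149 and 160.0 in the HR-negative LP libraries, 31.8, 33.1 and 39.8 in those of HR-positive LP and 0.971, 0.574 and 1.27 in those of ML. This was the tightest gene in HR-negative LP, with a coefficient of variation of 3.73%, and its groups were separate. Means were 154 ± 5.74, 34.9 ± 4.3 and 0.939 ± 0.35 CPM (SD, n = 3), with log2 fold changes of -2.14 (SE 0.20), -5.22 (SE 0.25) and -7.37 (SE 0.27).

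C3 (chromosome 17, 57203967 to 57228136), the central component on which the complement pathways converge, had the smallest steps of this pattern. It was at 155, 78.8 and 149.8 CPM in HR-negative LP, at 61.9, 26.6 and 39.6 CPM in HR-positive LP and at 5.73, 4.87 and 3.84 CPM in ML. The lowest HR-negative LP library was 1.27 times the highest HR-positive LP library, the narrowest gap among the 10 genes between these groups. Means were 128 ± 42.5, 42.7 ± 17.9 and 4.81 ± 0.946 CPM (SD, n = 3), with log2 fold changes of -1.58 (SE 0.32), -3.16 (SE 0.35) and -4.73 (SE 0.37). Replicate 2 was the lowest C3 library in both LP populations.

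**Figure D3:**
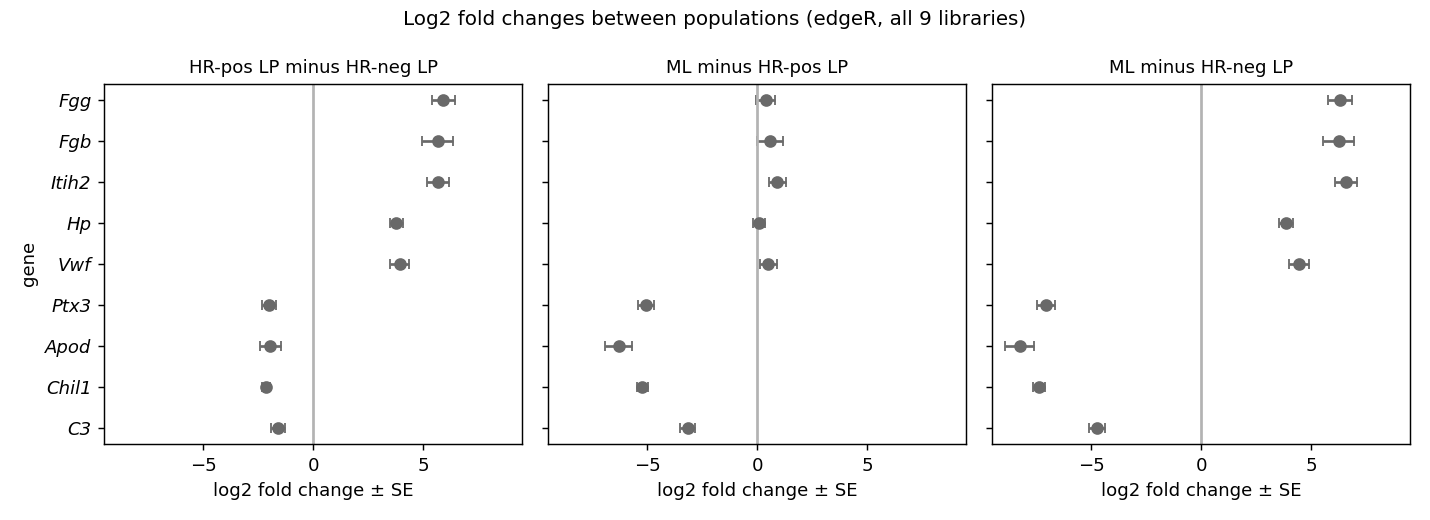
Log2 fold change (points) with SE (bars) of 9 of the genes in the 3 comparisons, from the fit across all genes; Fga is left out because it had 0 counts in HR-negative LP. Fgg, Fgb, Itih2, Hp and Vwf lie at 3.78 to 5.92 in the first panel and at 0.06 to 0.91 in the second, whereas Ptx3, Apod, Chil1 and C3 lie at -1.58 to -2.14 and then at -3.16 to -6.30.

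These patterns placed HR-positive LP at different points between the other populations. On the log2 scale, with HR-negative LP at 0% and ML at 100%, the HR-positive LP mean lay at 93.5% for Fgg, 90.5% for Fgb, 87.3% for Itih2, 98% for Hp and 88.6% for Vwf. For Ptx3, Apod, Chil1 and C3 it lay at 27.7%, 22.3%, 29.1% and 34.3%. In the first pattern HR-positive LP thus stood near ML, and in the second it stood nearer to HR-negative LP. All 3 comparisons share libraries, so these positions are not independent of the fold changes above.

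Ordered by level per length, the genes also changed places between populations. In HR-negative LP the order ran from Apod at 199 CPM per kb over Chil1 at 91.3, Ptx3 at 71.4 and C3 at 24.9 to Fgg at 10.3, Hp at 9.88 and Fgb at 6.75, with Vwf at 0.331, Itih2 at 0.28 and Fga at 0. The libraries of Fgg, Hp and Fgb overlapped there, as did those of Vwf and Itih2, and C3 replicate 2 at 15.4 lay below Fgg replicate 2 at 16.2, while Apod, Chil1 and Ptx3 were separate from their neighbours. In HR-positive LP Fgg led at 624 CPM per kb, followed by Fgb at 342 and Hp at 136, and Apod came next at 51.4; the libraries of Fgg and Fgb overlapped. In ML the same 3 genes led at 813, 512 and 142 CPM per kb, Itih2 came next at 30.4 and Vwf at 7.51, and C3, Apod, Chil1 and Ptx3 lay between 0.937 and 0.541 CPM per kb with overlapping libraries.

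By edgeR's quasi-likelihood test adjusted over the 15910 tested genes, 10 of 10 genes passed 0.05 between HR-positive and HR-negative LP, 6 higher and 4 lower, where 29.9% of all tested genes did (17.2% higher and 12.8% lower). Between ML and HR-negative LP 10 of 10 passed, again 6 higher and 4 lower, where 44.6% of tested genes did (23.3% higher and 21.3% lower). Between ML and HR-positive LP 4 of 10 passed, all lower in ML (Ptx3, Apod, Chil1 and C3), where 6.79% of tested genes passed (0.0943% higher and 6.7% lower). Nothing is read from these counts, since the genes were chosen with these contrasts known. Fga was the least certain of the 10: its call against HR-negative LP was lost in 9 of 17 alternatives for HR-positive LP, namely with the replicate block and on leaving out any 1 library other than ML replicate 2. For ML it was lost in 4 of 16, with limma voom, with the block, without HR-negative LP replicate 2 and without ML replicate 3.

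The libraries held between 27219103 and 108119756 counts, so counting error was small for the genes above a few CPM and large for Fga. HR-negative LP replicate 3 stood apart on the second principal component (-91.6 against 15.8 and 39.5 for replicates 1 and 2). Without it the log2 fold changes from HR-negative to HR-positive LP were 5.83 for Fgg, 5.43 for Fgb, 5.31 for Itih2, 3.69 for Hp, 3.63 for Vwf, -2.12 for Ptx3, -2.16 for Apod, -2.11 for Chil1 and -1.45 for C3. Luminal markers such as Krt8 were abundant everywhere, with a summed level of 10 genes of 16259.7 to 18629.6 CPM in HR-negative LP, 14755 to 19565 CPM in HR-positive LP and 15169 to 18813 CPM in ML.

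Markers of the cell types known to make these proteins were low. The 10 hepatocyte markers summed to 3.35 to 5.4 CPM in HR-negative LP, 0.274 to 1.49 CPM in HR-positive LP and 0 to 0.435 CPM in ML. The albumin gene Alb had no count in the YFP-positive libraries that held the fibrinogen transcripts, and 4 of the 10 markers were at 0 in every library. The 10 endothelial markers summed to 6.6 to 9.68, 6.72 to 11.7 and 12.5 to 14 CPM, against 46.4 and 66.2 CPM of Vwf alone in HR-positive LP and ML. Pecam1 stood at 3.39, 2.5 and 3.37 CPM and Cdh5 at 0.592, 0.69 and 0.558 CPM on average, whereas Egfl7, in the order of Vwf, was at 0.167 ± 0.136, 3.88 ± 1.06 and 6.39 ± 1.81 CPM (SD, n = 3). The part of Egfl7-positive cells in the Vwf level was not tested.

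Of the 8 platelet markers, Itga2b made up most of the sum, at 13.5, 11.7 and 15.5 CPM on average, and Pf4 was at 0, 0 and 0.0223 CPM. Fibroblast markers summed to 79.3 to 133 CPM in HR-negative LP, 64 to 269.7 CPM in HR-positive LP and 109 to 322 CPM in ML, with Col3a1 the highest in HR-negative LP at 38.7 CPM and Dcn, at 8.94 ± 2.14, 129 ± 109 and 153 ± 128 CPM, the highest in the other populations. From HR-negative to HR-positive LP, 1 of the 10 fibroblast markers was called higher and 6 were called lower (median log2 fold change -2.11). These were 10% and 60%, against 17.2% and 12.8% of all tested genes. The 10 basal markers summed to 134 to 175, 70.9 to 84.2 and 43.2 to 59.8 CPM and the 10 immune markers to 10.6 to 13.7, 5.54 to 7.67 and 3.72 to 4.64 CPM, so both sums stood in the order of Ptx3, Apod, Chil1 and C3. The 6 adipocyte markers stayed between 2.25 and 7.61 CPM in all libraries, and 5 red cell markers summed to 0.343 to 1.57, 3.84 to 11.7 and 4.62 to 12.4 CPM. The part of these cell types in the results was not tested.

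Other genes of the same systems were taken from 14 lists with 221 genes, of which 132 were tested. From HR-negative to HR-positive LP 21 rose and 30 fell (15.9% and 22.7%, against 17.2% and 12.8% of all tested genes). From HR-negative LP to ML 27 rose and 45 fell (20.5% and 34.1%, against 23.3% and 21.3%). From HR-positive LP to ML none rose and 22 fell (0% and 16.7%, against 0.0943% and 6.7%). With so few of all genes higher in ML there, nothing is read from lists without one. The shares of all tested genes called, up and down together, stand beside the counts of each list below. The count of 0 was also given by DESeq2 and limma voom, with 2 genes higher at an unadjusted p under 0.05 by edgeR, 2 by DESeq2 and 3 by limma voom. Since replicate numbers may pair the HR-positive LP and ML libraries, the fit with a replicate block stands beside it: it called 2 genes higher in ML, the interleukin-1 receptor gene Il1r1 and the LIF receptor gene Lifr, which were looked up after that count was seen.

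**Figure D4:**
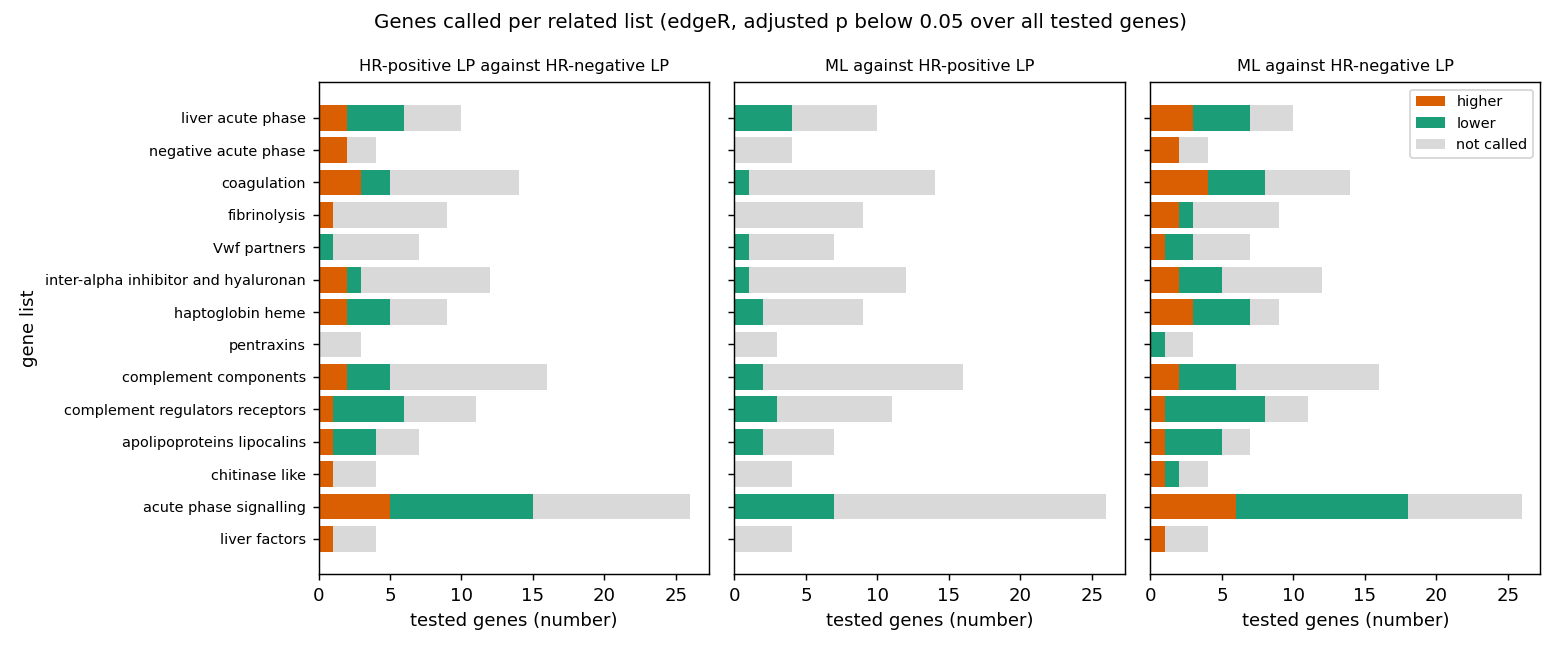
Number of tested genes (horizontal axis) in each of the 14 related lists that were called higher, called lower or not called, in the 3 comparisons. The signalling list is the longest, with 5 genes higher and 10 lower of 26 in the first panel, and no list has a gene called higher in the panel of ML against HR-positive LP. Of all tested genes, 0.0943% were called higher in that comparison.

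Around fibrinogen, 14 of 27 coagulation genes were tested, and 3 rose and 2 fell from HR-negative to HR-positive LP (median log2 fold change -0.26, against 0.01 over all tested genes). None rose and 1 fell from there to ML (median 0.15 against 0.01), and 4 rose and 4 fell from HR-negative LP to ML (median 0.47 against 0.03). The shares called were 35.7%, 7.14% and 57.1%, against 29.9%, 6.79% and 44.6% of all tested genes. Among those that rose, the prothrombin gene F2 and the factor V gene F5 passed the filter on low counts only through the YFP-positive libraries. Shares that include them are a description. Proc, which encodes the anticoagulant protein C, rose from 1.39 ± 0.958 to 49.8 ± 7.59 CPM in HR-positive LP (log2 fold change 5.07, adjusted p = 7.82e-06) and stood at 64.4 ± 1.18 CPM in ML. Its cofactor gene Pros1, protein S, fell from 48.6 ± 7.44 to 24.8 ± 3.67 CPM (-0.97, adjusted p = 0.00446). The tissue factor gene F3, the cellular starter of coagulation, was at 178 ± 10.5, 423 ± 202 and 583 ± 316 CPM (SD, n = 3). It passed between ML and HR-negative LP (1.71, adjusted p = 0.0116) but not between HR-positive and HR-negative LP (1.25, adjusted p = 0.0631), where 7 of 18 alternatives called it.

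Of the fibrinolysis list, 9 of 12 genes were tested, and 1 rose and none fell into HR-positive LP (median -0.21), none passed between HR-positive LP and ML (median 0.01), and 2 rose and 1 fell from HR-negative LP to ML (median -0.19). In shares, 11.1%, 0% and 33.3% were called, against 29.9%, 6.79% and 44.6% of all tested genes. Of the partners of von Willebrand factor, 7 of 10 were tested. None rose and 1 fell into HR-positive LP (median -0.28), none rose and 1 fell from there to ML (median 0.11), and 1 rose and 2 fell from HR-negative LP to ML (median -0.39). For these partners the shares called were 14.3%, 14.3% and 42.9%, beside the same shares of all tested genes. The integrin gene Itgb3, whose product binds fibrinogen and von Willebrand factor, fell from 41.4 ± 3.54 over 13.4 ± 3.34 to 1.98 ± 1.32 CPM (-1.63 and -2.76, adjusted p = 0.00813 and 0.00113). The gene of the cleaving protease, Adamts13, was at 0.205 ± 0.197, 0.504 ± 0.47 and 0.66 ± 0.351 CPM and passed no comparison.

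Around Itih2, the other parts of plasma inter-alpha-inhibitor were not detected: Itih1 and the bikunin gene Ambp had 0 counts in all 9 libraries. Tnfaip6, which encodes the protein that moves heavy chains to hyaluronan, was at 2 ± 2.09, 0.482 ± 0.273 and 0.65 ± 0.636 CPM and passed no comparison. Of 12 tested genes of 15 on this list, 2 rose and 1 fell into HR-positive LP (median -0.48), none rose and 1 fell from there to ML (median 0.23), and 2 rose and 3 fell from HR-negative LP to ML (median -0.37). Called in all were 25%, 8.33% and 41.7%, against 29.9%, 6.79% and 44.6% of all tested genes. Itih5, a related heavy chain gene, rose from 53.7 ± 28.1 to 355 ± 23.1 CPM (log2 fold change 2.72, adjusted p = 1.21e-04) and stood at 479 ± 44.9 CPM in ML. Cemip, a hyaluronan-degrading protein gene, rose from 0.349 ± 0.298 to 17.2 ± 6.15 CPM (5.90, SE 0.77). Cemip passed the filter on low counts only through the YFP-positive libraries, so its values are a description. The hyaluronan receptor gene Cd44 fell from 263 ± 31.8 over 96.1 ± 12 to 31.6 ± 5.27 CPM (-1.45 and -1.61, adjusted p = 8.77e-05 and 5.99e-05).

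The haptoglobin and heme list had all 9 genes tested, of which 2 rose and 3 fell into HR-positive LP (median -0.07), none rose and 2 fell from there to ML (median -0.10), and 3 rose and 4 fell from HR-negative LP to ML (median -0.17). As shares, 55.6%, 22.2% and 77.8% were called, against 29.9%, 6.79% and 44.6% of all tested genes. Among those that rose, the hemopexin gene Hpx passed the filter on low counts only through the YFP-positive libraries. Cd163, the haptoglobin-haemoglobin receptor gene best known from macrophages, ran against Hp. It fell from 21.5 ± 8.99 over 7.67 ± 1.11 to 1.08 ± 0.664 CPM (log2 fold changes -1.49 and -2.87, adjusted p = 0.0156 and 0.0013), and the first of these calls was lost without HR-negative LP replicate 2, HR-positive LP replicate 2 or HR-positive LP replicate 3 (range -1.76 to -1.14). Lrp1, a receptor that takes up heme bound to hemopexin, rose from 10.4 ± 7.9 to 45 ± 2.47 CPM (2.13, adjusted p = 0.00873).

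Among the other pentraxin genes, 3 of 6 were tested. None passed between HR-negative and HR-positive LP (median 0.72) or between HR-positive LP and ML (median -1.81), and 1 fell from HR-negative LP to ML (median -2.06): the neuronal pentraxin receptor gene Nptxr, from 1.61 ± 0.522 to 0.389 ± 0.25 CPM (adjusted p = 0.0264), a call lost without ML replicate 2, without ML replicate 3 and in the fit of only the 2 groups. The shares of pentraxin genes called were 0%, 0% and 33.3%, against 29.9%, 6.79% and 44.6% of all tested genes. Of 9 chitinase-like genes 4 were tested, with 1 higher and none lower in HR-positive LP (median -0.20), none in ML against HR-positive LP (median 0.07), and 1 higher and 1 lower in ML against HR-negative LP (median -0.02). For the chitinase-like genes 25%, 0% and 50% were called, beside the same shares of all tested genes. The gene called higher both times was Chid1, a chitinase domain gene, at 26.9 ± 8.09, 43.8 ± 1.97 and 48.9 ± 5.17 CPM (log2 fold change 0.70, adjusted p = 0.0237, into HR-positive LP). That call was lost on leaving out any HR-positive LP library, with a range of 0.49 to 0.93 over the alternatives.

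Of 28 complement components beside C3, 16 were tested, with calls in both directions. Into HR-positive LP 2 rose and 3 fell (31.2% called against 29.9% of all tested genes, median 0.04). From there to ML none rose and 2 fell (12.5% against 6.79%, median -0.12). From HR-negative LP to ML 2 rose and 4 fell (37.5% against 44.6%, median 0.07). Hc, the gene of component C5 which C3 fragments help to cleave, rose from 0.746 ± 1.02 to 39.1 ± 10.9 CPM (log2 fold change 5.46, adjusted p = 2.51e-04) and stood at 58.3 ± 17.7 CPM in ML. C2 rose from 5.18 ± 2.02 to 31.4 ± 5.9 CPM (2.59, adjusted p = 1.06e-04) and stood at 37.9 ± 9.76 CPM. C4b, whose product forms the classical C3 convertase with C2, followed C3 instead, at 264 ± 57.6, 75.4 ± 8.02 and 2.86 ± 1.03 CPM (-1.81 and -4.72, adjusted p = 3.05e-04 and 1.47e-06), although reads shared with its close copy C4a make the level uncertain.

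Masp1, a protease gene of the lectin pathway, fell from 41.9 ± 16.2 over 12.6 ± 2.38 to 0.218 ± 0.229 CPM. The log2 fold changes were -1.74 (adjusted p = 0.00923) and -6.01 (SE 0.58). Masp1 passed the filter on low counts only through the LP libraries, so its fall into ML is a description. Cfb, the factor B gene of the alternative pathway, stayed at 7 ± 2.38, 8.15 ± 1.86 and 8.19 ± 0.806 CPM and passed no comparison. Of 18 regulators and receptors 11 were tested, with 1 higher and 5 lower in HR-positive LP (median -1.27), none higher and 3 lower in ML than in HR-positive LP (median -0.14), and 1 higher and 7 lower in ML than in HR-negative LP (median -1.87). These were 54.5%, 27.3% and 72.7% called, against 29.9%, 6.79% and 44.6% of all tested genes. Cd55, which speeds the decay of C3 convertases, fell from 156 ± 51.2 to 63.1 ± 11.8 CPM (-1.31, adjusted p = 0.00142) and Cd59a, an inhibitor of the membrane attack complex, from 13.4 ± 1.66 to 4.81 ± 0.422 CPM (-1.48, adjusted p = 0.0019). The receptor gene C3ar1 stayed at or under 0.109 CPM on average in each population.

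**Figure D5:**
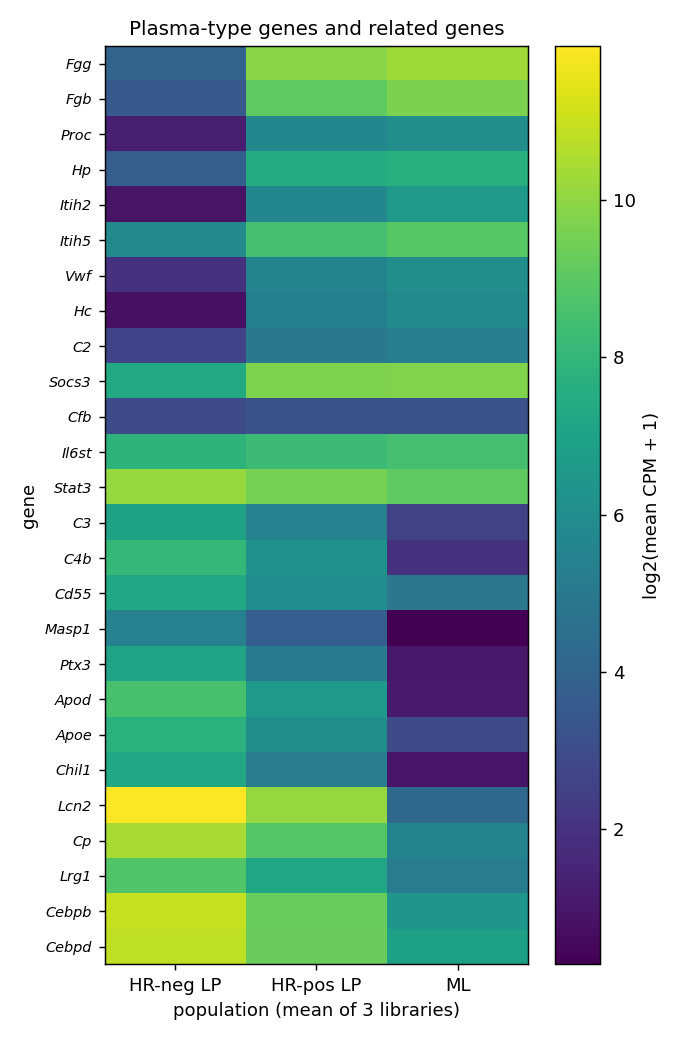
Mean level of selected genes in the 3 populations, as log2(mean CPM + 1) on the colour scale, one row per gene. Proc, Itih5, Hc, C2 and Socs3 share the lower level in HR-negative LP with Fgg, Fgb, Hp, Itih2 and Vwf, and C4b, Masp1, Apoe, Lcn2, Cp, Lrg1, Cebpb and Cebpd share the step down to ML with C3, Ptx3, Apod and Chil1.

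The classical inducers were followed in a list of 26 tested genes of 27, with 5 higher and 10 lower in HR-positive LP (median -0.34), none higher (2 with the replicate block, Il1r1 and Lifr) and 7 lower in ML than in HR-positive LP (median -0.25), and 6 higher and 12 lower in ML than in HR-negative LP (median -0.45). The main fit thus called 57.7%, 26.9% and 69.2%, against 29.9%, 6.79% and 44.6% of all tested genes. Il6 itself was at 0.418 ± 0.514, 0.92 ± 1.07 and 0.457 ± 0.421 CPM and passed no comparison. Its receptor gene Il6ra was at 30.2 ± 16.6, 44.5 ± 13.6 and 53.9 ± 11 CPM and passed none either (adjusted p = 0.29 between the LP populations). Il6ra passed between the LP populations in 2 of 18 alternatives, with the replicate block and without HR-negative LP replicate 3. Without that library, which was set apart above, its log2 fold change was 1.03 against 0.56 (edgeR adjusted p = 0.0479). Between ML and HR-negative LP it passed in 4 of 18. These were limma voom, scaling by library totals alone, the block and the fit without that same library. The shared receptor gene Il6st was at 225 ± 74.2, 313 ± 54.4 and 362 ± 76.4 CPM, and its call between ML and HR-negative LP (0.68, adjusted p = 0.0479) was lost in 9 of 18 alternatives, among them without HR-negative LP replicate 1, any HR-positive LP library, or ML replicate 2 or 3.

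Socs3, the feedback inhibitor induced by STAT3, had the pattern of the fibrinogen genes. It rose from 163 ± 37.2 to 835 ± 126 CPM in HR-positive LP (log2 fold change 2.35, adjusted p = 1.67e-05) and was at 858 ± 140.3 CPM in ML (SD, n = 3). Stat3 was at 1156 ± 292, 722 ± 110.3 and 525 ± 68.1 CPM, lower in HR-positive than in HR-negative LP (-0.68, adjusted p = 0.028), a call lost without HR-negative LP replicate 2 or 3 or HR-positive LP replicate 1 or 2. Cebpb and Cebpd, the C/EBP factors of the acute phase, followed Ptx3, Apod, Chil1 and C3: Cebpb fell from 1939 ± 107 over 613 ± 122 to 85.2 ± 19.6 CPM (-1.66 and -2.85, adjusted p = 1.32e-04 and 5.03e-06). Cebpd fell from 1825 ± 243 over 620.1 ± 92.9 to 121 ± 2.42 CPM (-1.56 and -2.36, adjusted p = 4.28e-05 and 3.34e-06). Lif, a cytokine that acts through the same shared receptor as interleukin-6, fell from 747 ± 262 over 226 ± 65.9 to 24.2 ± 9.89 CPM (-1.72 and -3.22, adjusted p = 0.00311 and 1.15e-04).

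Among the liver-enriched transcription factors, Hnf4a was at the edge of detection, at 0.0715 ± 0.124, 0.115 ± 0.104 and 0.102 ± 0.177 CPM, and passed no comparison. Of 10 listed factors 4 were tested, and 1 rose and none fell both into HR-positive LP (median 1.74) and from HR-negative LP to ML (median 1.66), with no call between HR-positive LP and ML (median 0.02). That gene was Foxa1, a pioneer factor of liver and of hormone-responsive mammary cells, which rose from 54.7 ± 15.6 to 354 ± 62.6 CPM (log2 fold change 2.69, adjusted p = 2.82e-05) and was at 477 ± 109.6 CPM in ML. In this list 25%, 0% and 25% were called (ML against HR-negative LP last), against 29.9%, 6.79% and 44.6% of all tested genes.

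Of 30 other positive acute-phase genes of the liver, 12 had no count in any library and 10 were tested. From HR-negative to HR-positive LP 2 rose and 4 fell (median -0.09), from there to ML none rose and 4 fell (median -0.03), and from HR-negative LP to ML 3 rose and 4 fell (median -0.12). Called shares were 60%, 40% and 70%, against 29.9%, 6.79% and 44.6% of all tested genes. The genes that rose passed the filter on low counts only through the YFP-positive libraries, so shares that include them are a description. Cp, the gene of the ferroxidase ceruloplasmin, fell from 1371 ± 144 over 453 ± 90.8 to 45.3 ± 27.4 CPM (log2 fold changes -1.60 and -3.32, adjusted p = 0.00575 and 1.23e-04). Lrg1, a leucine-rich glycoprotein gene, went from 444 ± 104 over 141 ± 31.6 to 37 ± 6.88 CPM (-1.65 and -1.93, adjusted p = 3.48e-04 and 1.91e-04). Lcn2, the siderophore-binding lipocalin gene, was at 3969 ± 323, 1092 ± 224 and 16.9 ± 12.4 CPM. Its fall into ML had a log2 fold change of -6.02 (adjusted p = 1.54e-04), and its fall into HR-positive LP (-1.86, adjusted p = 0.0315) was lost without HR-negative LP replicate 2 or 3 or any HR-positive LP library.

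Across the 9 libraries, the genes whose log2 CPM ran most alike to a member are given as a description, since all share the same 3 population means. For the mean of the fibrinogen chains they were Mid1 (Pearson r 0.989), Polm, Sptlc3, Wnt7b and Krt6a. Krt6a, a keratin gene, was also the nearest to Fgg alone (r = 0.998), at 6.38 ± 2.47, 318 ± 105 and 522 ± 162 CPM. Itih2 ran closest to the chemokine gene Cxcl17 (r = 0.999), Hp to Yipf1 (r = 0.991) and Vwf to Bicd1 (r = 0.999), with the arginase gene Arg1 next (r = 0.998). Pearson r takes no account of the size of a change. From HR-negative to HR-positive LP the log2 fold change was 0.69 for Yipf1 against 3.78 for Hp. For Krt6a it was 5.63 against 5.92 for Fgg. The caveolae genes Cav1 and Cavin1 were among the 5 nearest to Itih2 and to Vwf, respectively (r = 0.997 for each). Ptx3 ran closest to Hhipl2 (r = 0.999), Apod to the tachykinin gene Tac1 (r = 0.996), Chil1 to the scavenger receptor gene Scara5 (r = 0.998) and C3 to the collagen chaperone gene Serpinh1 (r = 0.994).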

How the data were processed

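RNA from 9 libraries of sorted luminal cells (miRNeasy kit, DNase, TruSeq RNA Library Prep Kit v2, which does not mark strand, per the labels' protocols) had been counted per gene. The authors deposited raw counts per gene with a gene length, made with featureCounts on mm10, per the submitters' processing notes; the aligner, annotation and treatment of reads with several matches are not given in the sources used here. The series table and the sample files held the same values (0 cells differing). Of 27179 gene IDs, 25275 (93.0%) were matched to RefSeq GRCm38.p6 symbols and positions; the other 1904 stayed in the table under their ID, subject to the same filter.

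Counts were filtered with filterByExpr (15910 genes left), scaled by TMM and compared with edgeR 4.0.16 (R 4.3.3; glmQLFit, glmQLFTest) over all 9 libraries with no covariate, with Benjamini-Hochberg adjustment over the tested genes and calls at 0.05. CPM are counts over the TMM-scaled library total, and levels per length divide by the deposited gene length. Alternatives were DESeq2 1.42.0, limma voom 3.58.1, other scalings and filters, a replicate block, the 2 compared groups alone, and each library left out. The script was tested on simulated data. Figures used matplotlib 3.10.9.

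The members and the 14 gene lists were chosen with earlier results of these data known. From each list up to 3 called genes per comparison with the highest mean CPM may be named, plus 20 fixed names; any other gene named was chosen after its values were seen. Lcn2, Clu and a few others count in more than 1 list. Same-numbered ML and HR-positive LP libraries deviated together (correlations 0.183, 0.121 and 0.189), so the numbers pair them, from the data alone. For HR-positive with HR-negative LP the correlations were 0.133, 0.039 and 0.147, against -0.146 to 0.019 for unlike numbers. For ML with HR-negative LP they were 0.053, 0.025 and 0.085, against -0.082 to 0.018. Same-numbered libraries thus correlated above all others there too. The main fit used no pairing in any comparison. Genes under a few CPM, Fga above all, are limited by counting error; paralog families such as Saa, Orm and Serpina1 may have lost reads with several matches. Some genes of the lists are not reported here.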

Additional observations from a re-analysis of the deposited data

How the results depend on the processing

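With the replicate block, 2 related genes were higher in ML than in HR-positive LP where the main fit, without it, called 0, and with only the 2 compared groups 1 was (Itih5); the cause was not tested. Under the same block the genes higher in ML over all tested genes went from 15 to 71, and members called there stayed at 4. The block also ended the call of Fga against HR-negative LP, for HR-positive LP and for ML. Same-numbered libraries correlated above all others in those comparisons too. No log2 fold change of a member or named gene turned direction with a call. Leaving out each library in turn gave 9 to 10, 4 to 5 and 9 to 10 members called (HR-positive against HR-negative LP, ML against HR-positive LP, ML against HR-negative LP), and 3193 to 5512, 808 to 1238 and 5633 to 7658 genes over all. Related genes higher were 18 to 24, 0 to 0 and 22 to 30, and lower 22 to 30, 18 to 23 and 36 to 46. Apart from Fga and Itih2, each member stayed on its side of the threshold under every alternative. Scaling by library totals alone moved the median log2 fold change of all genes to 0.12 and 0.19 against HR-negative LP for HR-positive LP and ML. Fga could not be fitted with a filter of CPM over 1 in at least 3 libraries. For ML against HR-negative LP it also dropped out of the fit of only these groups.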

Other observations

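Carriers that fall in the acute phase were also present. Of 10 such genes 4 were tested, and 2 rose both into HR-positive LP and from HR-negative LP to ML, with no call between HR-positive LP and ML. Among these carriers 50%, 0% and 50% were called (ML against HR-negative LP last), against 29.9%, 6.79% and 44.6% of all tested genes. Rbp4, the retinol carrier gene, had 0 counts in HR-negative LP and 492 and 246 counts in HR-positive LP and ML, at least 110.3-fold and 120.4-fold higher than the limit of 3 counts over the group. Serpina7, the thyroxine-binding globulin gene, had 0, 240 and 185 counts, at least 53.8-fold and 90.5-fold higher. Rbp4 and Serpina7 passed the filter on low counts only through the YFP-positive libraries, so their values are a description. Both remained under 3 CPM, and Alb, the main plasma carrier gene, had no count in either YFP-positive population. The highest gene of this list, Igfals, stood at 6.28 ± 2.58, 7.67 ± 3.17 and 7.72 ± 4.46 CPM and passed no comparison.

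Other genes of liver-made plasma proteins stood out after their values were seen. The prothrombin gene F2 had 0 counts in HR-negative LP and means of 2.87 ± 1.26 and 3.96 ± 0.0968 CPM in the other populations, HR-positive LP first (SD, n = 3). The factor V gene F5 went from 0.0153 ± 0.0184 over 3.99 ± 0.587 to 5.72 ± 0.682 CPM, and the hemopexin gene Hpx from 0.0102 ± 0.0177 over 1.51 ± 0.524 to 2.77 ± 1.81 CPM. Of the apolipoprotein and lipocalin list 7 of 16 genes were tested, with 1 higher and 3 lower in HR-positive LP (median log2 fold change -0.95), none higher and 2 lower in ML than in HR-positive LP (median -0.55), and 1 higher and 4 lower in ML than in HR-negative LP (median -1.43). This made 57.1%, 28.6% and 71.4% called, against 29.9%, 6.79% and 44.6% of all tested genes. Apoe, the lipid carrier gene, fell like Apod, from 214 ± 58.6 over 64.7 ± 21.8 to 6.73 ± 1.08 CPM (-1.73 and -3.27, edgeR adjusted p = 8.66e-04 and 2.39e-05).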
